A study of Mus musculus with 24 samples.

Results

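Open chromatin was compared between day 10 (D10) and day 6 (D6) of the differentiation of mouse embryonic stem cells into heart muscle cells. The members are the regions of the D10 and D6 peak lists, pooled into 1 set. Intervals of both lists that overlapped by at least 1 bp were merged into 1 region. A region was called D10-only when it held no D6 interval, D6-only when it held no D10 interval, and shared when it held both. The rule gave 36381 regions, of 128693 merged regions over the 12 peak lists of the time course. Of these, 8228 were D10-only, 10111 were D6-only and 18042 were shared.

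The study used A2lox.cre cells, a line of mouse embryonic stem cells, for ATAC-seq, in which a transposase inserts sequencing adapters into accessible DNA. It has 24 samples, with 2 biological replicates for each of 12 time points, from the 2i medium of the undifferentiated cells (2i) to D15. The 4 samples compared here are 2 of D10, which the labels call cardiomyocytes, and 2 of D6, which they call an intermediate of cardiac differentiation; all are of the same line, with no other treatment in the labels. The labels of both replicates of a day name a single peak list, so the lists hold no spread between replicates and no difference between D10 and D6 was tested; signal tracks were not used here. Counts, shares and their 95% Wilson intervals are given instead, and these intervals cover counting error only. Both lists hold a whole culture, so fewer cells with an open region and less opening per cell cannot be told apart.

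In this differentiation, pluripotent cells pass through a stage like the primitive streak, in which T (Brachyury), Eomes and Mesp1 act, and then form cardiac progenitors that express Nkx2-5, Gata4 and Tbx5. These progenitors turn on the sarcomere and calcium-handling genes of beating heart muscle, and cultures usually also hold fibroblast, smooth muscle and endothelial cells. Promoters of widely used genes tend to be open in most cell types, whereas distal enhancers differ more between cell types and stages.

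Promoters of genes on which the comparison turns are printed here, as RefSeq gives them for GRCm38.p6 (mm10), from 250 bases before to 50 bases after the annotated start, 5′ to 3′ on the gene's strand. The D10-only set holds Col3a1 (chr1:45311288-45311587, plus strand), a fibrillar collagen, Postn (chr3:54360857-54361156, plus strand), which encodes the matrix protein periostin, and the downstream start of Wnt11 (chr7:98838595-98838894, plus strand), a Wnt ligand. Capitals mark matches to the searched motifs.
Col3a1: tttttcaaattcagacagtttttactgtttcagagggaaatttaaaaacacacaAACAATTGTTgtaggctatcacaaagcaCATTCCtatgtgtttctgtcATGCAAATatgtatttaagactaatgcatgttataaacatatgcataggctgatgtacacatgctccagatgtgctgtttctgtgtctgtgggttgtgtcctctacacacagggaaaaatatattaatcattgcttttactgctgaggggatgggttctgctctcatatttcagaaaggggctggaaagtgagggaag
Postn: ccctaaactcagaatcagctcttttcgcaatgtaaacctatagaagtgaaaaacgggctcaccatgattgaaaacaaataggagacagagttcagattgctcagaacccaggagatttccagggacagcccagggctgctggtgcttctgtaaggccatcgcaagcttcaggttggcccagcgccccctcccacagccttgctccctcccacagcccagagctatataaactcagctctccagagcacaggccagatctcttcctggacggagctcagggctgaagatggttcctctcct
Wnt11, downstream start: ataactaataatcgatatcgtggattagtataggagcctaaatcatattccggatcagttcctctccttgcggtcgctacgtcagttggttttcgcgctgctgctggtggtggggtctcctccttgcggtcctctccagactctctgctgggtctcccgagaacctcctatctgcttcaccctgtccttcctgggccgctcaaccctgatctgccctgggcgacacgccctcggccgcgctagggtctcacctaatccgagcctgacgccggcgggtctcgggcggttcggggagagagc
The D6-only set holds Actc1 (chr2:114052826-114053125, minus strand), cardiac actin, Nkx2-5 (chr17:26841516-26841815, minus strand), a cardiac homeobox factor, T (chr17:8434173-8434472, plus strand), the streak factor Brachyury, and the upstream start of Wnt11 (chr7:98834862-98835161, plus strand).
Actc1: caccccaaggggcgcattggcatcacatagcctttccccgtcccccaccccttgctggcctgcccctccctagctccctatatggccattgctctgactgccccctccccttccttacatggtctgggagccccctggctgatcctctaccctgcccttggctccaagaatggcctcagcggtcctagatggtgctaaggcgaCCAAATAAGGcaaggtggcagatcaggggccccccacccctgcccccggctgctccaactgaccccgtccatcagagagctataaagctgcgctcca
Nkx2-5: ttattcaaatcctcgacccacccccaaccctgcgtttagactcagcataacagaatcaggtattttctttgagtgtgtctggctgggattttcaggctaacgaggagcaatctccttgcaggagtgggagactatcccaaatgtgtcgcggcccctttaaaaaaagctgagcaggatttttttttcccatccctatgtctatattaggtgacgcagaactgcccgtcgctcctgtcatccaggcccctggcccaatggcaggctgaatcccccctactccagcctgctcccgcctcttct
T: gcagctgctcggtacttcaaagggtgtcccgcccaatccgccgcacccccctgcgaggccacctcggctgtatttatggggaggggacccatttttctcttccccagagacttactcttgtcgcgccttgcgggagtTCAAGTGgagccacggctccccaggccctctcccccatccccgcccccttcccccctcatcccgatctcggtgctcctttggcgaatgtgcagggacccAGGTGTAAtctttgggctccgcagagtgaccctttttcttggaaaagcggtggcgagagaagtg
Wnt11, upstream start: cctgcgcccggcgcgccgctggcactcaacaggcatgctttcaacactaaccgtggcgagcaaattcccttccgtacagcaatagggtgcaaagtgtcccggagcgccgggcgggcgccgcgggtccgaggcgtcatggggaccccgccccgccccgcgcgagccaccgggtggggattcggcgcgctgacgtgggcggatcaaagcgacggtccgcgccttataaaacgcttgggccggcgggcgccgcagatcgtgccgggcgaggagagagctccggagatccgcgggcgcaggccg
The motifs were searched on both strands in all 21045 promoter windows. In Col3a1 the capitals mark the SOX motif ATTGTT on both strands, whose matches overlap, the TEAD motif GGAATG and the octamer ATGCAAAT, found in 8.91%, 13.5% and 1.68% of all windows. In Actc1 they mark a CArG box, the site of serum response factor, found in 1.54% of windows. In T they mark the NKX2 motif TNAAGTG and the T-box motif AGGTGTNA, found in 10.9% and 2.81% of windows. The printed windows of Postn, Nkx2-5 and Wnt11 held no match to the 12 motifs. Postn has another annotated start, with a SOX match in its window (chr3:54359017-54359316, plus strand), which no D10 or D6 peak touched.

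About equal numbers of peaks were called on both days, and about as many regions were in 1 list only as in both. The D10 list held 32641 peaks in 26381 intervals and the D6 list held 32791 peaks in 28278 intervals. D10-only regions made up 22.6% of the merged regions (22.2 to 23.0), D6-only regions 27.8% (27.3 to 28.3) and shared regions 49.6% (49.1 to 50.1). Of the D10 intervals 31.2% touched no D6 interval, and of the D6 intervals 35.8% touched no D10 interval. D6-only regions were 1883 more than D10-only regions, and the D6 list had 1897 more intervals than the D10 list, so the balance between these classes follows from the number of intervals. The D10 list had more peaks per interval, 1.24 against 1.16 in the D6 list.

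Regions found on 1 day only were narrow and weak within their own list. Their median width was 345 bp for D10-only and 327 bp for D6-only regions, against 851 bp for shared regions. In the D10 list the median fold enrichment, the authors' ratio of signal to background at a peak, was 3.70 for D10-only and 6.73 for shared intervals. In the D6 list it was 3.61 for D6-only and 8.30 for shared intervals. The fold values belong to each list, so they were compared only within it. A −log10 q of at least 5, where q is the peak caller's p-value adjusted for multiple testing, was reached by 27.1% of D10-only and 81.2% of shared D10 intervals, and by 36.1% of D6-only and 88.5% of shared D6 intervals.

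Among the strongest intervals almost none were found on 1 day only. With each list ranked by fold enrichment and split into 4 equal parts, the share of D10 intervals with no D6 interval was 1.17% in the strongest part, then 14.0%, 44.2% and 65.3% in the weakest. The share of D6 intervals with no D10 interval was 0.863%, 14.8%, 50.6% and 76.8% in the same order. A weak region near the calling threshold can miss the list of the other day, and missing a list does not mean that the chromatin there was closed. With a −log10 q of at least 5 asked of both lists, 3027 regions were D10-only and 5740 were D6-only. Classes were made again from the peaks left, so a shared region with a weak peak on 1 day then counted for the other day only. Of the D10-only and D6-only regions of the main setting, 2229 and 3649 reached this q.

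**Figure D1:**
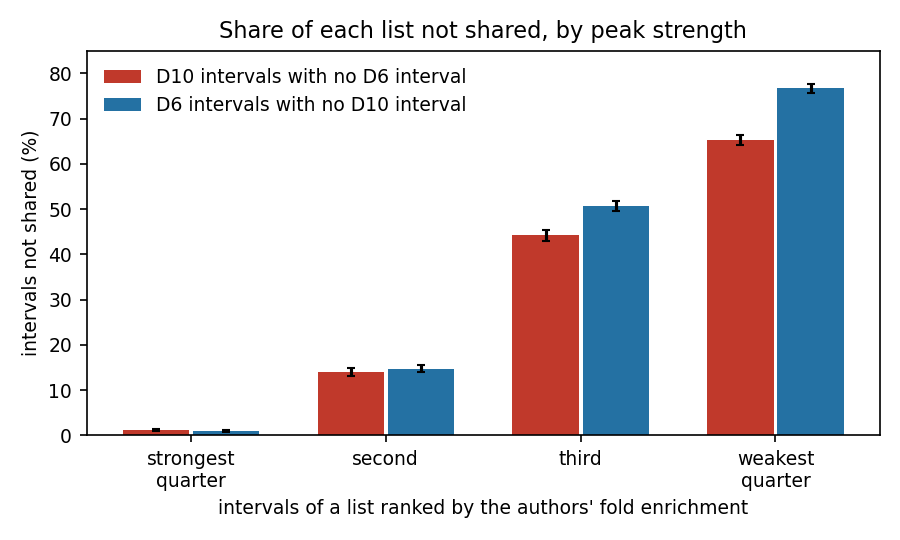
Share of the intervals of each list (vertical axis, %) that touched no interval of the other list, by rank of the authors' fold enrichment within the list (horizontal axis, strongest part at the left); bars are D10 and D6 intervals and error bars are 95% Wilson intervals. The share is 1.17% for D10 and 0.863% for D6 in the strongest part and 65.3% and 76.8% in the weakest.

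The D10-only regions lay farthest from gene starts. A region was placed by its centre relative to 21631 protein-coding genes of RefSeq, with annotated starts for 17274 of them and both ends of the gene body for the others. Within 1 kb of a start lay 5.83% of D10-only regions and 11.4% of D6-only regions, against 63.5% of shared regions, each with an interval of less than 1 percentage point on either side. The median distance to the nearest start was 42.8 kb for D10-only regions, 21.7 kb for D6-only regions and 0.242 kb for shared regions. Over 50 kb from any gene body lay 24.4% of D10-only, 14.5% of D6-only and 6.14% of shared regions. Inside a gene body but over 1 kb from a start the D10-only and D6-only classes were close, with 44.6% (43.6 to 45.7) and 45.8% (44.8 to 46.8).

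**Figure D2:**
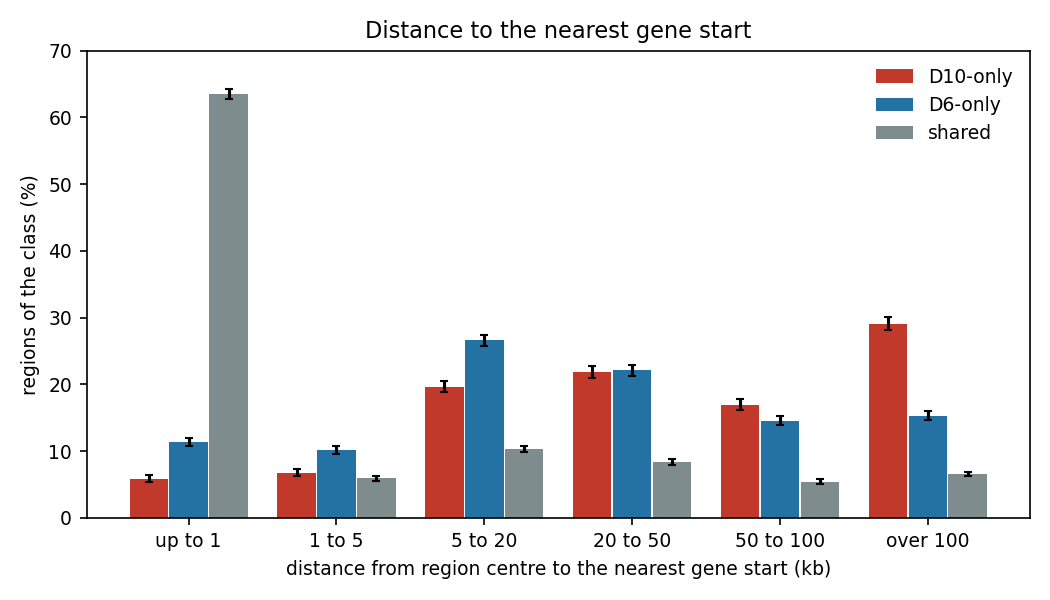
Share of D10-only, D6-only and shared regions (vertical axis, % of the class) by distance from the region's centre to the nearest gene start (horizontal axis, kb); error bars are 95% Wilson intervals. Shared regions sit mostly within 1 kb of a start (63.5%), and D10-only regions (5.83%) less often than D6-only regions (11.4%).

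The chromosomes differed in which class was more frequent. The D10-only share was lowest on chromosome 11, at 15.5% of its 2711 regions, and on chromosome 19, at 16.3%, and highest on chromosome 3, at 27.8%. The D6-only share was highest on chromosome 11, at 33.0%, and lowest on the X chromosome, at 14.7%. On the X chromosome 67.2% of 787 regions were shared.

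The other 10 lists, which the rule did not use, placed the classes in the time course. Of the D10-only regions 66.9% were called at D7 and 64.9% at D8, and 41.8% (40.7 to 42.8) were called again at D15. Of the D6-only regions 69.3% were called at D7 and 58.7% at D8, but 10.7% (10.1 to 11.3) at D15. Of the shared regions 87.5% were called at D15 and 75.6% already at 2i. The lists differ in length, with 43341 peaks at D5, 66993 at D7, 53633 at D8 and 36248 at D15, and the part of list length in these shares was not tested. 

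The D6-only class held mostly regions called earlier as well. In at least 1 list before D6, 41.7% of D10-only regions (40.6 to 42.7) and 71.6% of D6-only regions (70.7 to 72.5) had a call. Among D10-only regions 38.2% were first called at D7 or D8 and 20.2% first at D10. Among D6-only regions 47.1% were first called from D2 to D5, and 63.0% were called at D7 or D8 but not at D15. At D5 and D7, on both sides of D6, 1965 D10-only regions (23.9%) had a call, so their absence at D6 was a gap within the course. In no other list were 14.1% of D10-only and 14.4% of D6-only regions.

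**Figure D3:**
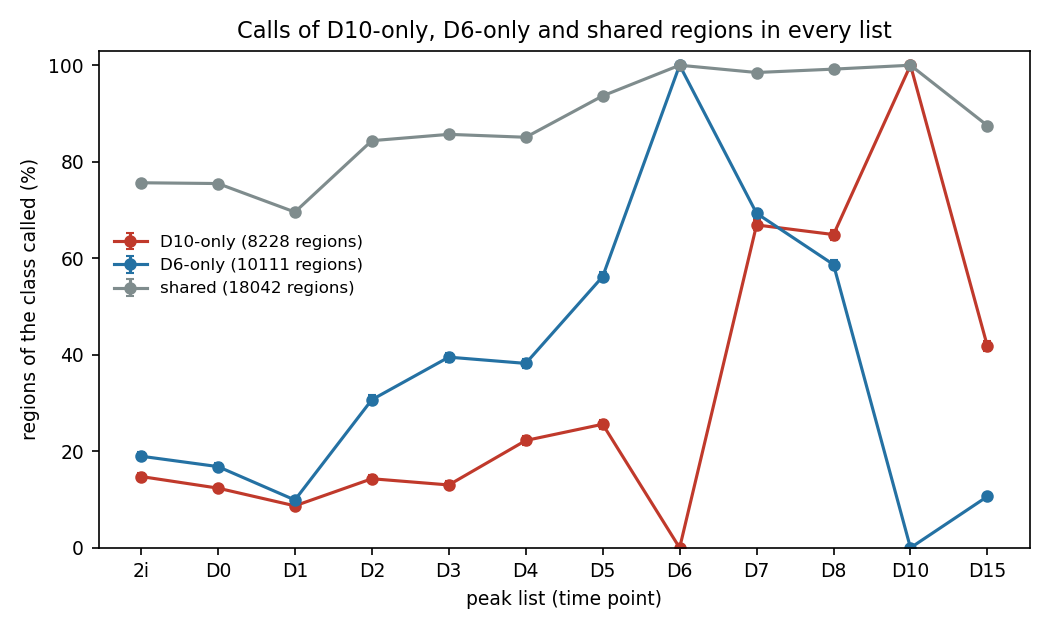
Share of the 8228 D10-only, 10111 D6-only and 18042 shared regions (vertical axis, % of the class) called in each of the 12 peak lists in order of time (horizontal axis); error bars are 95% Wilson intervals. D10-only and D6-only regions are both frequent at D7 and D8 and part at D15, with 41.8% and 10.7%; the values of 0 and 100 at D6 and D10 follow from the rule.

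Beside genes of the heart and of other lineages, D6-only regions outnumbered D10-only regions in 18 of 21 gene lists. Each region went to the gene with its centre inside the body, or else to the nearest body within 50 kb. Over all 31792 regions assigned to a protein-coding gene, 19.6% were D10-only, 27.2% D6-only and 53.3% shared, and each list is read against these shares. The D10-only share was above that of all genes in 8 lists, in 2 of them with the whole interval above it, and the D6-only share in 15, in 9 of them with the whole interval above it. With a −log10 q of at least 5 the shares of 6 and 20 lists were above those of all genes. More D10-only than D6-only regions were found in 2 lists, fatty acid and mitochondrial metabolism and fibroblast and matrix, and equal numbers in the smooth muscle list.

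**Figure D4:**
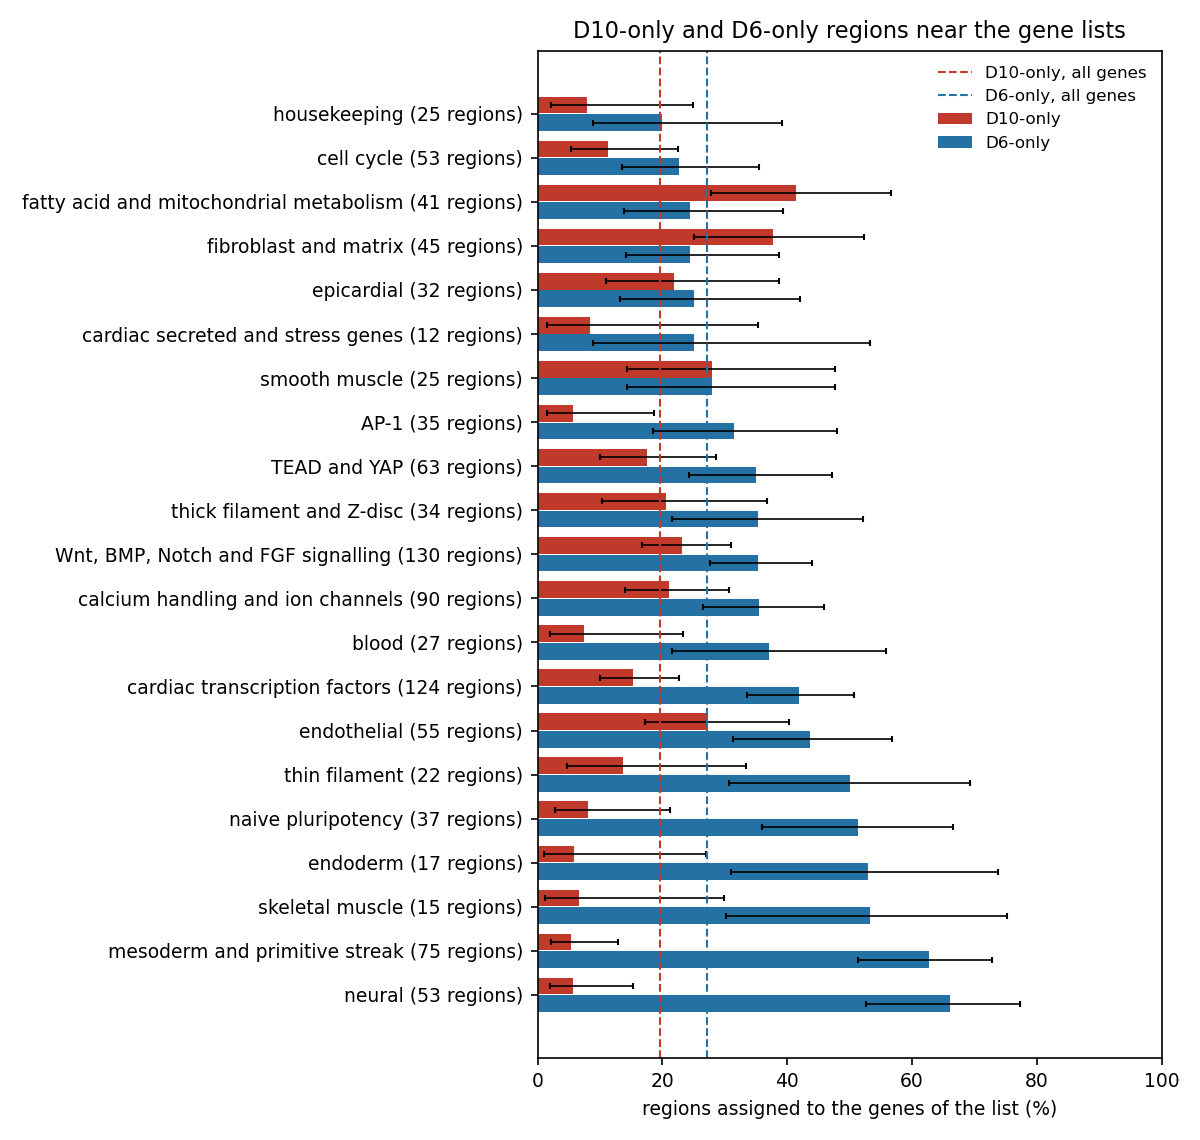
D10-only and D6-only regions as shares of all regions assigned to the genes of each of 21 lists (horizontal axis, %), with 95% Wilson intervals as error bars; dashed lines give the shares over all protein-coding genes, 19.6% D10-only and 27.2% D6-only. The neural and the mesoderm lists have D6-only shares of 66.0% and 62.7%, and the fatty acid and the fibroblast lists have D10-only shares of 41.5% and 37.8%.

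The genes of early mesoderm and the primitive streak had almost no D10-only regions. Their 24 genes had 4 D10-only, 47 D6-only and 24 shared regions, so 5.33% were D10-only (2.09 to 12.9) and 62.7% D6-only (51.4 to 72.7). Lhx1, a LIM homeobox factor of early mesoderm and the organizer, had 0 D10-only and 5 D6-only regions. Evx1, a homeobox factor of the streak, and Cdx2, a factor of posterior mesoderm, had 0 D10-only and 4 D6-only regions each. The D6-only start region of Lhx1 (chr11:84524910-84526429) was called in 9 of the 12 lists. Mesp1, the factor that marks early cardiac mesoderm, had 0 D10-only and 3 D6-only regions. The Mesp1 region at chr7:79797119-79797720 had a D6 fold enrichment of 5.31 and was called from D4 to D8. Mixl1, a homeobox factor of mesendoderm, had a D6-only start region (chr1:180696653-180697602) with a fold enrichment of 6.57 that was called in every list from 2i to D8.

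Neural genes, like those of the mesoderm list, had mostly D6-only regions, with the highest D6-only share of the 21 lists in the main setting. Their 18 genes had 3 D10-only, 35 D6-only and 15 shared regions, which is 5.66% D10-only (1.94 to 15.4) and 66.0% D6-only (52.6 to 77.3). Pax7, a paired-box factor of the dorsal neural tube and of muscle stem cells, had 0 D10-only and 7 D6-only regions, with D6 fold enrichments up to 4.92 at its start. Pax6, Sox1, Neurog1 and Neurog2, which act in neural progenitors, had 0 D10-only and 3 D6-only regions each. The naive pluripotency list had 3 D10-only, 19 D6-only and 15 shared regions, and Tbx3, which also stands in the cardiac list, gave 6 of its D6-only regions. Pou5f1, the core pluripotency factor, had no assigned region on either day.

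Cardiac transcription factors had 19 D10-only, 52 D6-only and 53 shared regions over 26 genes. The D10-only share was 15.3% (10.0 to 22.7) and the D6-only share 41.9% (33.6 to 50.7). Tbx5, a T-box factor of the heart fields and atria, had 0 D10-only and 5 D6-only regions, the strongest with a fold enrichment of 7.07 (chr5:119874854-119876002). Nkx2-5 had 0 D10-only and 4 D6-only regions, 1 at its start (chr17:26841234-26841624), whose sequence is printed above, with a fold enrichment of 6.10. The Nkx2-5 start region was called at D2, D3 and D5 to D8 and at neither D10 nor D15. Tbx3, a factor of the conduction system, had 0 D10-only, 6 D6-only and 2 shared regions.

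Zfpm2, Mef2c and Hand2 had more D10-only than D6-only regions, and Gata4 had equal numbers. Zfpm2 (Fog2), a cofactor of GATA4, had 4 D10-only, 0 D6-only and 1 shared region, and its 4 D10-only regions lay inside its long gene body. Mef2c, a MADS-box factor of the heart fields, had 3 D10-only, 1 D6-only and 3 shared regions. Gata4, a zinc finger factor of heart and endoderm, had 2 D10-only, 2 D6-only and 3 shared regions, with a D10-only region at 1 end of its gene body (chr14:63271494-63272065) with a fold enrichment of 4.41 in the D10 list. That Gata4 region and another 25.8 kb beyond the same end (chr14:63297099-63297849, fold enrichment 6.23) were both called at D7, D8, D10 and D15 and in no earlier list. Hand2, a basic helix-loop-helix factor of the second heart field, had 1 D10-only, 0 D6-only and 7 shared regions.

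Sarcomere genes had more D6-only than D10-only regions, as had all genes (27.2% and 19.6%). The thin filament list had 3 D10-only, 11 D6-only and 8 shared regions over 10 genes. The thick filament and Z-disc list had 7, 12 and 15 over 20 genes. The interval of the D6-only share was above that of all genes for the thin filament list (30.7% to 69.3%). For the thick filament and Z-disc list it held the share of all genes (21.5% to 52.1%). The D10-only intervals of both lists held the share of all genes. The Actc1 start region (chr2:114052813-114053256) had a D6 fold enrichment of 4.99 and was called from D5 to D8 only. Ldb3, a Z-disc protein, had a D6-only start region (chr14:34588399-34588867) with a fold enrichment of 4.72, also called from D5 to D8. Starts called on both days were more frequent than starts called on 1 day only. The same held over all genes, with 57.5% on both days, 1.65% at D10 only and 4.35% at D6 only. Of the 10 thin filament genes 5 had a start called on both days, 0 at D10 only and 1 at D6 only. Of the 20 thick filament and Z-disc genes 5 were called on both days, 0 at D10 only, 3 at D6 only and 12 on neither day. Their share called on both days was well below that of all genes. The start region of Tnnt2, cardiac troponin T (chr1:135835751-135836432), was shared, with a fold enrichment of 6.62 in the D10 list and 6.25 in the D6 list, and was called in every list from D5 on. Myh6 and Myh7, the cardiac myosin heavy chains, had 0 D10-only and 1 D6-only region each, with D6 fold enrichments of 2.68 for Myh6 and 2.66 for Myh7. Tnni3, cardiac troponin I, Nppa, atrial natriuretic peptide, and Pln, phospholamban, had no assigned region on either day.

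The calcium handling and ion channel list had 19 D10-only, 32 D6-only and 39 shared regions over 22 genes. The shares were 21.1% D10-only (14.0 to 30.6) and 35.6% D6-only (26.4 to 45.8), and both intervals held the share of all genes. A stricter rule was chosen after seeing the data. A D10-only region also had to be absent from D5 and called at D8 or D15. A D6-only region had to be absent from D15 and called at D5. The list then had 13 D10-only and 12 D6-only regions, 20.3% and 18.8%. All genes then had 3338 and 4117, which is 13.7% and 16.9%. Both shares of the list were above those of all genes in the main setting and under this rule. Ryr2, which releases calcium from internal stores at each beat, had 4 D10-only, 2 D6-only and 4 shared regions. The strongest of its D10-only regions lay just outside the gene body (chr13:11548984-11549618), with a fold enrichment of 9.16, and was called from D7 to D15. Kcnq1, a repolarizing potassium channel, had 4 D10-only, 5 D6-only and 3 shared regions.

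The fatty acid and mitochondrial metabolism list had more D10-only than D6-only regions. Its 14 genes had 17 D10-only, 10 D6-only and 14 shared regions, which is 41.5% D10-only (27.8 to 56.6). Only 5 of the genes had a D10-only region, and Ppargc1a and Esrrg together gave 13 of the 17. Ppargc1a, the coactivator PGC-1alpha of mitochondrial biogenesis, had 7 D10-only, 0 D6-only and 2 shared regions. The strongest Ppargc1a regions lay at chr5:51917890-51918563 and chr5:52051651-52052173, inside its gene body, with fold enrichments of 7.76 and 7.65. Esrrg, a nuclear receptor of oxidative metabolism, had 6 D10-only, 3 D6-only and 3 shared regions, and its D10-only regions had folds of 3.13 to 4.27. With a −log10 q of at least 5 in both lists the metabolism list had 6 D10-only and 5 D6-only regions.

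Fibroblast and matrix genes were the other list with more D10-only regions. Their 14 genes had 17 D10-only, 11 D6-only and 17 shared regions, which is 37.8% D10-only (25.1 to 52.4) and 24.4% D6-only (14.2 to 38.7). With a −log10 q of at least 5 this turned round, to 5 D10-only and 9 D6-only regions. More D10-only than D6-only regions were thus found only with the weak peaks included. Over all genes this setting left 2317 D10-only and 4919 D6-only regions, which is 11.3% and 23.9%. Both shares of the fibroblast and matrix list were above these. The Col3a1 start region (chr1:45311228-45311679) had a fold enrichment of 3.27 in the D10 list, the Postn start region (chr3:54360947-54361184) 3.70 and the start region of Dcn, the matrix proteoglycan decorin (chr10:97479265-97479802), 3.93. The Col3a1 region was called from D7 to D15 and in no earlier list. Col6a1, a chain of collagen VI, had 3 D10-only, 0 D6-only and 2 shared regions, and the strongest (chr10:76668780-76669462) had a fold enrichment of 5.76 and was called at D8, D10 and D15.

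The other supporting lineages were mixed. The epicardial list had 7 D10-only, 8 D6-only and 17 shared regions, and Wt1, a zinc finger factor of the epicardium, had 3, 0 and 5. The smooth muscle list had 7 D10-only and 7 D6-only regions, of which Mylk, myosin light chain kinase, gave 4 D10-only and 0 D6-only. With a −log10 q of at least 5 the smooth muscle list had 1 D10-only and 8 D6-only regions. The endothelial list had 15 D10-only, 24 D6-only and 16 shared regions. Kdr, the VEGF receptor of endothelial and early mesodermal cells, had 1, 3 and 1, and its strongest D6-only region (chr5:76008431-76008925) had a fold enrichment of 7.98 and was called from D4 to D7. The blood list had 2 D10-only and 10 D6-only regions, and Runx1, a factor of blood formation, had 0 and 6.

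Among signalling and general lists, the one for Wnt, BMP, Notch and FGF had 30 D10-only, 46 D6-only and 54 shared regions. Dusp6, a phosphatase that damps FGF signalling, had 4 D10-only and 0 D6-only regions, whereas the receptor gene Notch1 had 1 and 5. The TEAD and YAP list had 11 D10-only and 22 D6-only regions, and Tead1, 1 of its DNA-binding factors, had 2 and 6. The AP-1 list had 2 D10-only and 11 D6-only regions. The endoderm list had 1 D10-only and 9 D6-only regions and the skeletal muscle list had 1 and 8. The cardiac secreted and stress list had 1 and 3. Housekeeping genes had 2 D10-only, 5 D6-only and 18 shared regions, and Gapdh had 1 shared region. Cell cycle genes had 6, 12 and 35, so both lists were mostly shared.

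At gene starts themselves few genes differed between the days. Within 1 kb of a start, 356 genes had a D10 peak and no D6 peak (1.65% of 21631), 942 had a D6 peak and no D10 peak (4.35%) and 12439 had both (57.5%). Of the 337 distinct genes of the lists, 10 had a start called at D10 only, 44 at D6 only and 207 on both days. The 10 were Gata4, Trdn, Upk1b, Col3a1, Postn, Dcn, Pdgfrb, Sox17, Myf6 and Fgf16. Of these only Col3a1 and Postn had an annotated start. For the others a peak at either end of the gene body counted, which may not be the start. Among the 14 fibroblast and matrix genes, 4 had a start called at D10 only and 0 at D6 only. Of the 24 mesoderm and primitive streak genes 0 had a start called at D10 only and 10 at D6 only, T, Mixl1, Nodal, Tbx6, Bmp4, Wnt3, Wnt3a, Lhx1, Evx1 and Cdx2. Of the 18 neural genes 0 and 5 did so, the 5 being Pax3, Pax7, Neurog1, En1 and Olig2. Of these mesoderm and neural genes, Mixl1 and Pax3 had no annotated start.

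The starts called on 1 day only had mostly been called at D7 and D8 as well. Of the 10 starts of listed genes called at D10 only, 9 were called at D7, 9 at D8 and 7 at D15. Of the 44 called at D6 only, 42 were called at D7, 37 at D8 and 9 at D15. For all genes the D7 and D8 shares were similar, 89.3% and 83.7% of the starts called at D10 only. They were 90.9% and 83.5% of those called at D6 only. Over all genes 57.6% of the 356 starts called at D10 only were also called at D15 (52.4 to 62.6), against 22.9% of the 942 called at D6 only (20.4 to 25.7). Many had been called before D6 as well. At D5 59.8% of the starts called at D10 only and 79.6% of those called at D6 only had a call. Only 21.9% and 8.81% were called in none of the lists from 2i to D4. The T start (region chr17:8433619-8434647) was called at D0 and from D2 to D8, and at neither D10 nor D15.

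**Figure D5:**
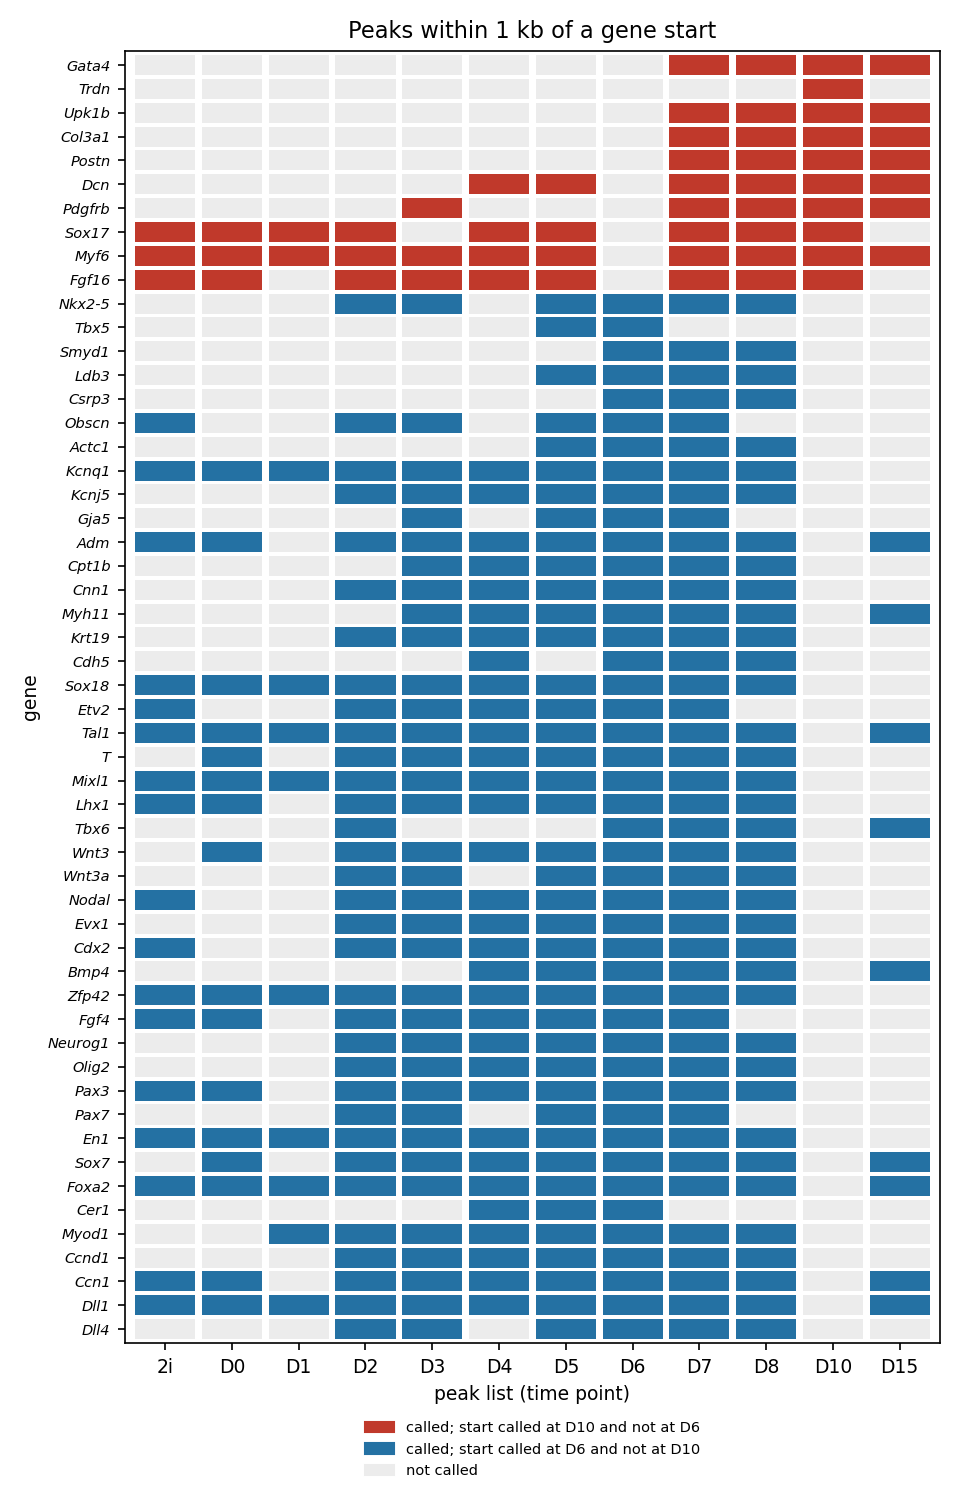
Peaks within 1 kb of a gene start in each of the 12 lists (horizontal axis, in order of time) for the 10 listed genes with a start called at D10 and not at D6 (red rows, top) and the 44 with a start called at D6 and not at D10 (blue rows, below); coloured cells are called and grey cells are not. Most blue rows continue to D7 and D8 and stop before D15, where 9 of 44 are called. Genes without an annotated start were read at both ends of the gene body.

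Wnt11 carried both kinds of start. Its downstream start had a D10-only region (chr7:98838705-98839408) with a fold enrichment of 3.58 in the D10 list, and its upstream start a D6-only region (chr7:98834861-98835320) with a fold enrichment of 3.59 in the D6 list. The Wnt11 upstream region was called at 2i, D0, D3 and D5 to D8, and the downstream region at D3, D5, D7, D8, D10 and D15. Both were therefore called at D5, D7 and D8.

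The promoters of the classes differed in base composition. The median GC content was 52.0% in the 263 promoter windows touched by D10 peaks only and 61.0% in the 692 touched by D6 peaks only, against 62.7% in the 11358 touched by both, 47.7% in the 8725 touched by neither and 56.7% over all windows. The TEAD motif GGAATG stood in 18.3% (14.1 to 23.4) of D10-only and 12.3% (10.0 to 14.9) of D6-only windows, against 16.7% of windows touched by neither and 13.5% of all windows. The SOX motif ATTGTT stood in 10.3% and 5.78% of D10-only and D6-only windows, against 14.7% of windows touched by neither. The CTCF motif stood in 3.04% (8 windows) and 1.01% (7 windows), against 0.836% of shared windows. The ETS motif CCGGAAGT stood in 1.90% and 1.30%, against 8.86% of shared windows. The part of GC content in these motif shares was not tested.

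The label of cardiomyocyte at D10 was matched only in part by peaks at the starts of marker genes. Over all protein-coding genes 59.2% of starts were called at D10 and 61.9% at D6. Of 10 cardiomyocyte markers 3 had a start called at D10 (Tnnt2, Actn2 and Ryr2) and 5 at D6, where Actc1 and Nkx2-5 were added. The starts of Myh6, Myh7, Tnni3, Myl7 and Ttn were called on neither day, and 4 of the 10 were called at D15. Of 7 epicardial and fibroblast markers 7 were called at D10 and 4 at D6, and all 7 were also called at D7, D8 and D15. Over the whole epicardial list 7 of 10 starts were called at D10 and 7 at D6, and over the whole fibroblast and matrix list 11 of 14 at D10 and 7 at D6. Of the markers of other cell types, 2 and 4 of 4 for smooth muscle, 2 and 3 of 6 for endothelium, 1 and 2 of 4 for blood, 2 and 3 of 4 for neural cells, 1 and 1 of 4 for endoderm and 1 and 2 of 4 for undifferentiated cells were called at D10 and at D6. Peaks at starts are not expression, and the part of other cell types in the classes was not tested.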

How the data were processed

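ATAC-seq was made on A2lox.cre cells in 2 replicates at each of 12 time points. The tools named are cutadapt 2.10 for adapters, Bowtie2 2.3.2 for alignment to mm10, then SAMtools 1.5 with Picard, and MACS2 2.1.1 for peaks, per the submitters' processing notes, which give no order or settings. The way replicates were combined, any shift of reads for the transposase and the read depth: not given in the sources used here. As a hint of background coverage, with which it increases, the −log10 p of deposited peaks with a fold of 4.9 to 5.1 had a median of 11.1 at D10 and 10.6 at D6. Signal tracks were not used here.

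Deposited peaks have a fold enrichment, a linear ratio, a −log10 p-value, and as a further score the −log10 of a q-value, as the authors' peak caller gave them. They served to describe, rank or filter peaks inside 1 list. The smallest −log10 q was 1.30 in both lists.

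Overlapping intervals were merged with Python 3.11.15, pandas 2.3.3 and numpy 2.4.6, and intervals for shares came from scipy 1.17.1. The code was tested on simulated data. Genes and promoters were those of RefSeq (GRCm38.p6), and 17274 of 21631 genes had a promoter entry. All 337 distinct listed genes matched. The members and lists were chosen with earlier results of these data known. Genes were named from a preset set of heart and control genes, the up to 3 genes per list with most D10-only or D6-only regions, the 10 genes and 10 strongest regions per class (fewer are printed). Genes named for their starts alone were chosen after their values were seen. Alternatives were stricter peaks, the 20000 strongest peaks, other overlap and distance rules, and calls in neighbouring lists.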

Additional observations from a re-analysis of the deposited data

How the results depend on the processing

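Counts of regions moved with how strict the peaks had to be. With a −log10 q of at least 5 there were 3027 D10-only and 5740 D6-only regions, with the 20000 strongest peaks of each list 2804 and 4473, and with calls required in neighbouring lists 4276 and 4969. D6-only regions were the more numerous under these 3 settings. They were so too under an overlap of 50% (8518 and 10406) and summits within 250 bp (11485 and 12711). The lists hold near equal numbers of peaks, 32641 at D10 and 32791 at D6. The part of list length in the balance under these settings was not tested. The shares within 1 kb of a gene start of D10-only, D6-only and shared regions were 8.91%, 16.5% and 66.9% within 2.5 kb, 10.7%, 21.8% and 74.5% with the stricter q, and 4.26%, 8.77% and 53.9% with annotated starts only; with both ends of every gene the shared value was 57.6%. The order of the classes was the same in each. Of the 2229 D10-only and 3649 D6-only regions whose own peak reached that q, a set unlike the one above, 67.7% and 14.1% were called at D15. The number of gene lists with more D10-only than D6-only regions was 2, and became 1 with the stricter q, 4 with neighbouring lists and 3 within 20 kb or 100 kb. The order of lists by share also moved: the mesoderm list had a higher D6-only share than the neural list within 100 kb (65.5% and 63.6%), and the endoderm list (81.8%) was above both with the stricter q. Rules on neighbouring lists and on gene ends were chosen after seeing the data. The alternatives gave 186 further values, for single gene lists and for calls in single peak lists. Of these, 141 were classed as the same and 45 as moved. Values classed as the same could still change, such as the epicardial D10-only share, 21.9% in the main setting and 11.5% within 20 kb. Of the 45 that moved, 31 did so with the stricter q, which leaves fewer peaks. The cause of the other moves was not tested. No paired analysis was possible because the files used here hold a single peak list per day for both replicates. Read depth, and so how many weak regions each list missed, could not be had.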

Other observations

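Genome-wide, long genes held the most regions of 1 day. Nav2 had 13 D10-only and 6 D6-only regions over 651 kb, and Macrod2 had 11 and 6 over 1998 kb. Gse1 had 6 D10-only and 20 D6-only regions over 353 kb. Casz1, a zinc finger factor of heart development, had 0 D10-only, 10 D6-only and 5 shared regions over 151 kb, and Tenm4 had 12 D10-only and 12 D6-only regions over 740 kb.

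The 10 D10-only regions with the highest fold enrichment, 10.5 to 13.4 in the D10 list, all lay over 1 kb from a gene start. All 10 were called at D15, 9 at both D7 and D8, and 7 in no list before D6. Of all D10-only regions 66.9% were called at D7, 64.9% at D8 and 41.8% at D15. In at least 1 list before D6 41.7% of them had a call. The regions of these 10 inside gene bodies lay in Ntm, Tmem200a, Crem, Cfap69, Focad and Abcd2. The 10 strongest D6-only regions, 12.7 to 32.7 in the D6 list, included 3 narrower than 250 bp. These 3 had the highest folds, 32.7, 29.1 and 24.8, and all lay over 50 kb from any gene body. What these narrow regions are was not tested. Of the 10 strongest D6-only regions, 7 were called at both D7 and D8 and 5 at D15. Of all D6-only regions 69.3% were called at D7, 58.7% at D8 and 10.7% at D15. Lin28a, an RNA-binding regulator of early development, held 1 of the 10 strongest (chr4:134011376-134012277, fold enrichment 13.5). It was called from D2 to D8 and at neither D10 nor D15.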
